A study of Mus musculus with 27 samples.

Results

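The primary lymphoid organs, bone marrow and thymus, were compared with the secondary lymphoid organs, lymph node and spleen. The comparison used 12 of the study's 27 arrays, 6 per side, which were taken by their tissue label alone. Every array held total RNA of males of the inbred strain C57BL/6, wild type and 6 to 8 weeks old, and no treatment is named. Each of 9 tissues had 3 arrays, and the bone marrow came from femurs. The labels name no lymph node site, nor whether a tissue's arrays stem from different mice or from pools. The p-values therefore cover array-to-array spread alone. The custom Affymetrix array measured glycogenes, which encode enzymes, carriers and binding proteins of glycans, with chemokine, cytokine and adhesion genes, and 573 mouse genes were tested.

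Primary lymphoid organs make lymphocytes: B cells, myeloid cells and red cells arise in bone marrow, and T cell precursors mature in thymus. Mature lymphocytes then settle in lymph node and spleen, where stromal cells lay out B cell follicles and T cell zones by secreting chemokines, and where dendritic cells and macrophages present antigen. CXCL13 and its receptor CXCR5 guide B cells to follicles, CCL21 and CCL19 guide CCR7-bearing cells to T cell zones, and CCL25 draws CCR9-bearing precursors within the thymus.

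The tissue labels were checked against marker genes. Ltf, the lactoferrin of neutrophil granules, read 13201 to 14644 in the bone marrow arrays and at most 1097 in the other 9. Ccr9, a receptor of thymocytes, read 1708 to 2345 in thymus and at most 241 elsewhere. Glycam1, a mucin-like L-selectin ligand of high endothelial venules, the vessels through which lymphocytes enter lymph nodes, read 4063 to 4638 in lymph node and at most 312 elsewhere. The spleen arrays also carried pancreas acinar transcripts, with summed levels of 3 Reg genes of 7408 to 16611 against 530.1 to 772 in the other lymphoid tissues, and the part of this tissue in the spleen values was not tested. Each of the 12 arrays had its highest correlation with a replicate of its tissue, and r across genes within a tissue was 0.965 to 0.988. The tissues of a side were not the nearest pair in each case, with a median r of 0.889 between lymph node and spleen, 0.781 between bone marrow and thymus and 0.856 between thymus and lymph node. Array medians ran from 221.5 to 237.1. Human probe sets on the same arrays, a rough measure of cross-species background, had a median of 200.5 and a 95th percentile of 600.0 over these arrays. The median mouse gene read 303.7. Readings near or under the human median may be non-specific.

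A gene was called when limma's adjusted p was under 0.05, the log2 difference between the side means was at least 1 in size, and both tissue means of one side lay above both of the other. By this rule 33 genes, or 5.76% of those tested, were higher in the secondary organs. Only 4 genes, or 0.698%, were higher in the primary organs. The median difference over all 573 genes was -0.03 on the log2 scale (primary minus secondary, as for all differences below). The 6 secondary arrays all lay above the 6 primary arrays in 28 of the 33 genes, where 10.1% of all genes did so. The 6 primary arrays all lay above the secondary ones in 1 of the 4 genes, where 2.09% of all genes did so. The genes were called on these same arrays, which favours such separation, so these counts describe the calls and add no support. With 1 value per tissue, 2 tissues against 2, limma called 0 genes: 62 genes had an unadjusted p under 0.05, of which 23 secondary-higher and 1 primary-higher also met the size and agreement conditions, and the lowest adjusted p was 0.0919. The calls therefore describe these 4 tissues through the spread between their arrays, not primary and secondary organs as classes.

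**Figure D1:**
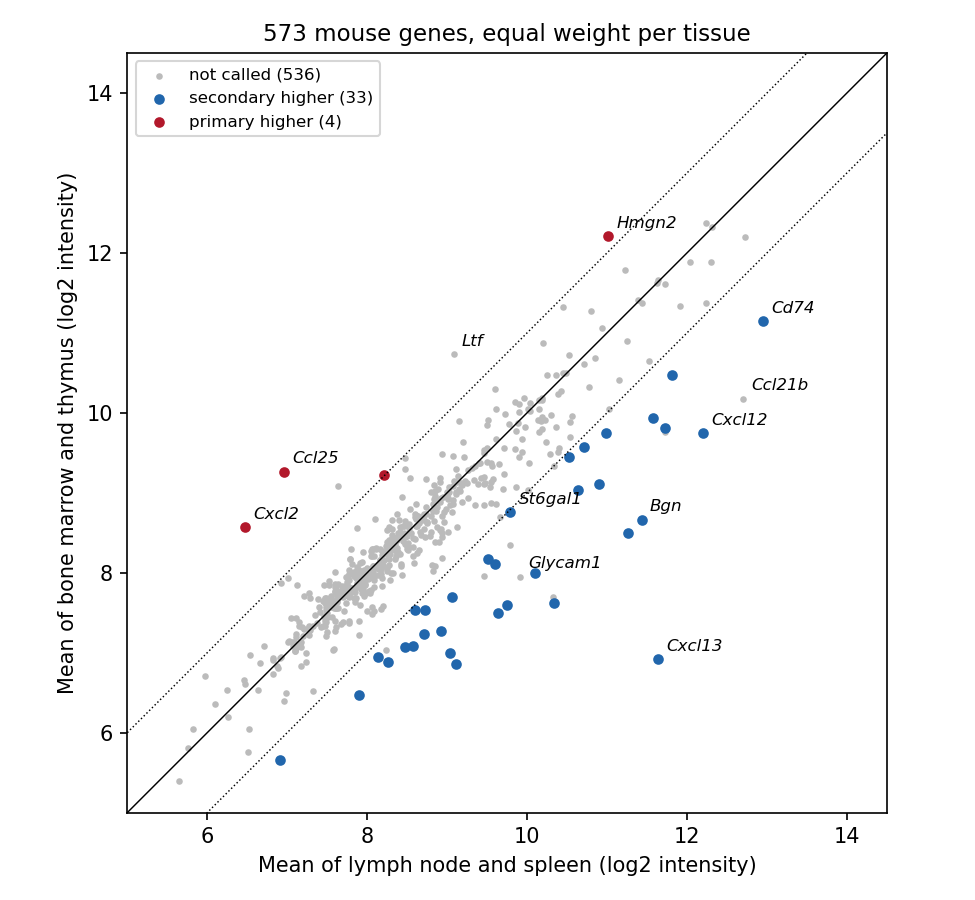
Mean log2 intensity of bone marrow and thymus (vertical axis) against that of lymph node and spleen (horizontal axis) for 573 mouse genes, 1 point per gene. The solid line marks equality and the dotted lines a log2 difference of 1. The 33 secondary-higher genes lie below the lower dotted line, Cxcl13 farthest, and the 4 primary-higher genes lie above the upper one. Grey points outside the dotted lines, such as Ccl21b, Glycam1 and Ltf, are genes whose tissues did not agree.

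The largest difference was in Cxcl13, the B cell chemokine of follicles. It read 102, 96.3 and 85.8 in bone marrow and 199.6, 142 and 132 in thymus. It read 3333, 3730.1 and 3507 in lymph node and 3382, 2673 and 2659.7 in spleen. The sides lay far apart, with all primary arrays below the human probe set median, and Cxcl13 in the 5 non-lymphoid tissues reached a mean of at most 137. The difference was -4.72 ± 0.11 (SE, limma adjusted p = 6.58e-21), a 26.3-fold ratio of signals.

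Cxcr5, the receptor for CXCL13 on mature B cells and follicular helper T cells, followed the same order. Its arrays read 125, 138 and 128 in bone marrow, 139.8, 121 and 115 in thymus, 452, 474 and 468 in lymph node, and 611, 575 and 587 in spleen. The 6 secondary arrays lay in a narrow band above all primary arrays, which were all below the human median. The difference was -2.04 ± 0.07 (SE, limma adjusted p = 1.15e-16).

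Ccr7, the receptor that brings naive T cells and mature dendritic cells into T cell zones, was graded over the 4 tissues. It read 392, 375 and 329 in bone marrow, 864, 736 and 682 in thymus, 1214 to 1355 in spleen and 1855 to 2201 in lymph node, with no overlap between any pair of tissues. The difference was -1.60 ± 0.09 (SE, limma adjusted p = 6.24e-13). Ccl21b, which encodes a CCR7 ligand, had a side difference of -2.52 ± 0.11 but was not called, because its thymus mean of 5537 lay above its spleen mean of 4821. Its bone marrow arrays stood at 231 to 270.1.

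Cxcl12, a stromal chemokine that holds blood stem cells and precursors in their niches, passed the rule by bone marrow. It read 220.2, 147 and 353 in bone marrow, 4041, 2934 and 2954 in thymus, 5127, 3955 and 3966 in lymph node, and 5526, 4939.7 and 4920.4 in spleen. One thymus array lay above the lower lymph node arrays. The difference was -2.45 ± 0.14 (SE, limma adjusted p = 7.41e-13), and thymus alone against the secondary organs gave -0.52, which is under the size limit.

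Of the 9 measured homeostatic lymphoid chemokines and receptors, 4 were higher in the secondary organs (Cxcl13, Cxcl12, Cxcr5 and Ccr7), 1 in the primary organs (Ccl25) and 4 were not called. The list's median difference was -1.60. Over all 573 genes, 5.76% were called higher in the secondary organs and 0.698% in the primary organs, the background for every list below. Ccr9, with its thymus level given above, differed by 1.46 on the side means but bone marrow (134 to 162) lay below lymph node (205 to 241).

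**Figure D2:**
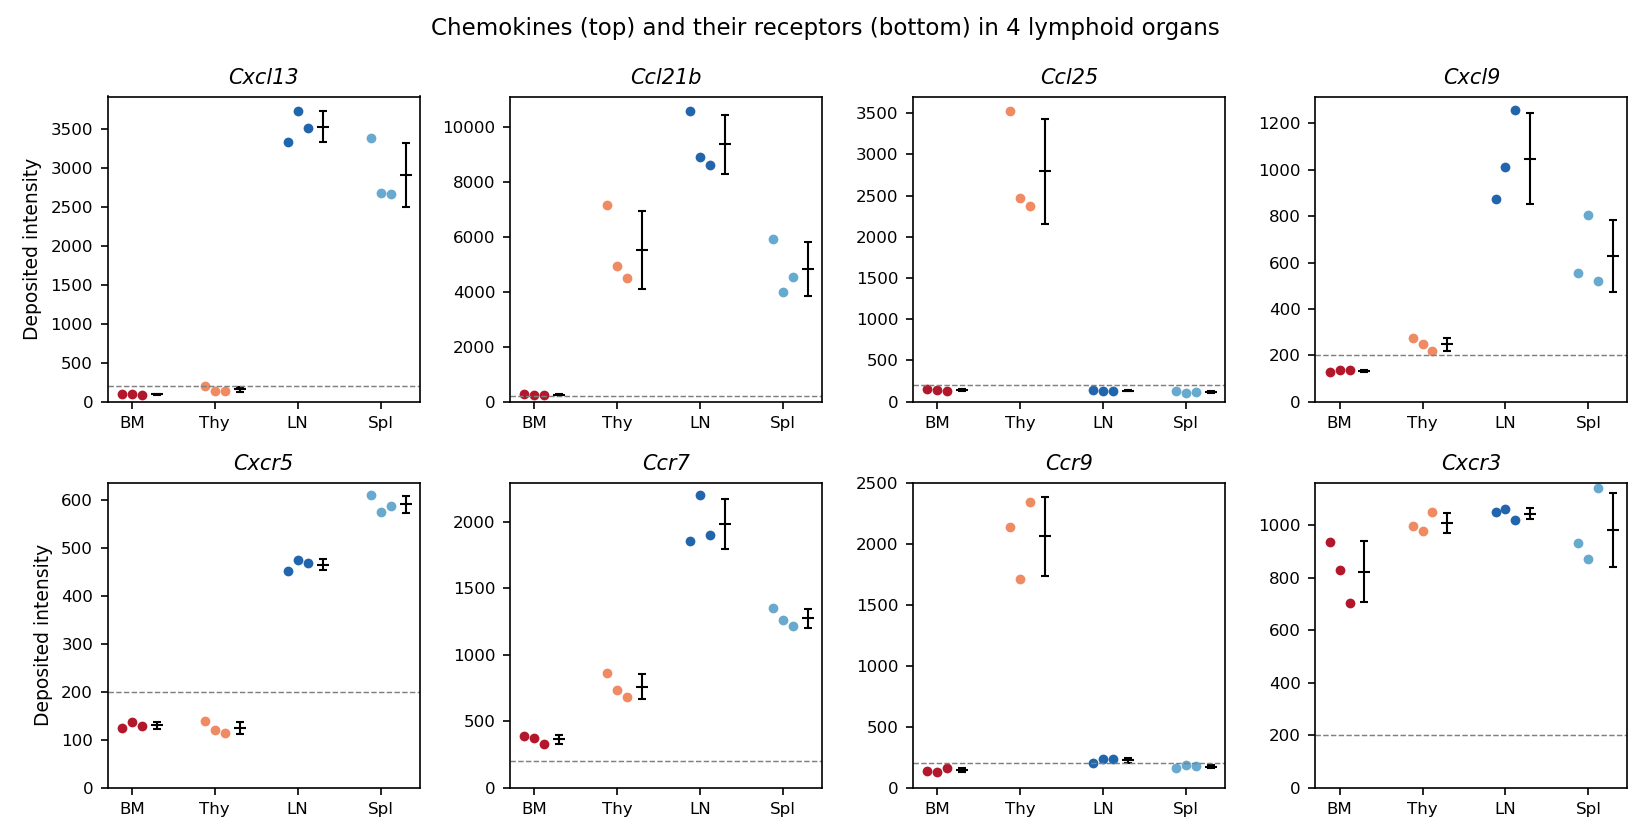
Deposited intensity (linear axes from 0) of 4 chemokines in the top row and a receptor of each below it, with 1 point per array in bone marrow (BM), thymus (Thy), lymph node (LN) and spleen (Spl). The black marks show the mean ± SD of 3 arrays and the dashed line the human probe set median of 200.5. Cxcl13 and Cxcr5 are high in lymph node and spleen alone, Ccl25 and Ccr9 in thymus alone, and the Cxcr3 points of the 4 tissues lie within 705 to 1140.2.

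The chemokines outside that group included 2 interferon-induced ligands of the receptor CXCR3, Cxcl9 and Cxcl10, with higher levels in the secondary organs, and Cxcl2, a neutrophil attractant, with the opposite direction. These genes and Cxcl13 all lie on chromosome 5. The 250 bases upstream of the annotated start of each, from RefSeq on assembly GRCm38.p6, are shown because they belong to the called CXC ligands of this chromosome, which include both directions, a set chosen after the values were seen. Capitals mark matches to TATAAA, to GAAANNGAAA (the core of the interferon-stimulated response element) and to the kappaB consensus, searched on both strands. The windows are chr5:95956689-95956938 (+) for Cxcl13, chr5:92328080-92328329 (-) for Cxcl9, chr5:92348890-92349139 (-) for Cxcl10 and chr5:90903649-90903898 (+) for Cxcl2, each written 5′ to 3′ on the gene's strand.
Cxcl13: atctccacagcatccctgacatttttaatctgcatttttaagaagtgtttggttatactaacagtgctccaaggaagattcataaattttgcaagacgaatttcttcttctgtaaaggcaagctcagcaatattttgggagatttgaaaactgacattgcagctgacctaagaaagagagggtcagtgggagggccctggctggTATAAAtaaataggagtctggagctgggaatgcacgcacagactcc
Cxcl9: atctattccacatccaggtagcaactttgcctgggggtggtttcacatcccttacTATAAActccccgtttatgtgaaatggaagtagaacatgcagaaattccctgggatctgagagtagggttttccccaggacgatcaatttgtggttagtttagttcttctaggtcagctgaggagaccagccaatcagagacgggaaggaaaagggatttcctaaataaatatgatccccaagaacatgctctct
Cxcl10: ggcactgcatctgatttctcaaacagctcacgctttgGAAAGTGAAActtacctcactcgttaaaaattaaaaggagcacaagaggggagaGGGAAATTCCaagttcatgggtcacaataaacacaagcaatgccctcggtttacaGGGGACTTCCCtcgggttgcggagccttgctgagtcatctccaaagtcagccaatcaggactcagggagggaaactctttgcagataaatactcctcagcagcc
Cxcl2: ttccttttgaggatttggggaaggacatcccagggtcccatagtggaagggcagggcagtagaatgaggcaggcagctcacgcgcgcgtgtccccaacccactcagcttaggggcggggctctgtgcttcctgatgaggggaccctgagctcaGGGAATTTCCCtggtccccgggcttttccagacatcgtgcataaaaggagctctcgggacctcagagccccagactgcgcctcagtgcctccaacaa

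The Cxcl13 window held TATAAA at 46 to 41 bases upstream of the start, and the Cxcl9 window held it at 195 to 190. The Cxcl10 window held the interferon element core at 213 to 204 bases upstream, 1 kappaB match at 159 to 150 and overlapping kappaB matches over 104 to 94. The Cxcl2 window held overlapping kappaB matches over 97 to 87. Over the 32851 promoter windows of this length, 12.4% held TATAAA, 2.98% held GAAANNGAAA and 7.25% held the kappaB consensus. Among the 26 of 37 called genes found in the promoter table, 6, 1 and 4 held them, in that order. A gene was counted if any of its windows matched, whereas the percentages are of single windows, so these counts and shares are not directly comparable. A match is a match of letters and was not tested as a site.

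Cxcl9 read 128, 136 and 135 in bone marrow, 273, 249.9 and 217 in thymus, 874, 1012 and 1259 in lymph node, and 555, 806 and 522 in spleen. The sides did not overlap, and the difference was -2.14 ± 0.12 (SE, limma adjusted p = 1.9e-13). Cxcl10 differed by -1.33 ± 0.13 (limma adjusted p = 1.05e-08), but its lowest lymph node array (536) was next to the highest thymus array (535), and without bone marrow the difference was -0.69. Their receptor Cxcr3, found on activated T cells and NK cells, read 705 to 1140.2 over all 12 arrays with overlapping sides and a difference of -0.15 ± 0.11 (limma adjusted p = 0.287).

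Ccl5, a chemokine of effector T cells and NK cells, read 571 to 783 in bone marrow, 1243 to 1291 in thymus, 1905 to 2610.1 in spleen and 5076 to 5194 in lymph node, again with no overlap between tissues. The difference was -1.92 ± 0.14 (SE, limma adjusted p = 6.22e-11). A second probe set of Ccl5, of lower signal, gave -0.58. Among receptors, Ccr6, which marks B cells and some T cells, was 132 to 171 in the primary arrays and 321 to 509 in the secondary arrays (-1.48 ± 0.09). Cxcr6, a receptor of effector T and NKT cells, was highest in lymph node (495 to 608) and reached 199.9 to 257 in spleen against 90.9 to 192 in the primary arrays (-1.40 ± 0.12). Without lymph node the Cxcr6 difference was -0.79. Ccr1l1, a receptor gene of the Ccr1 group, was 68.9 to 117 in the primary arrays and 214 to 288 in the secondary arrays. Even its higher side lay near the human probe set median of 200.5, so its signal may be non-specific. Of 34 other chemokines and receptors on the list that holds these genes (Ccr1l1 is on none), 5 were higher in the secondary and 1 in the primary organs, with a median of -0.08.

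**Figure D3:**
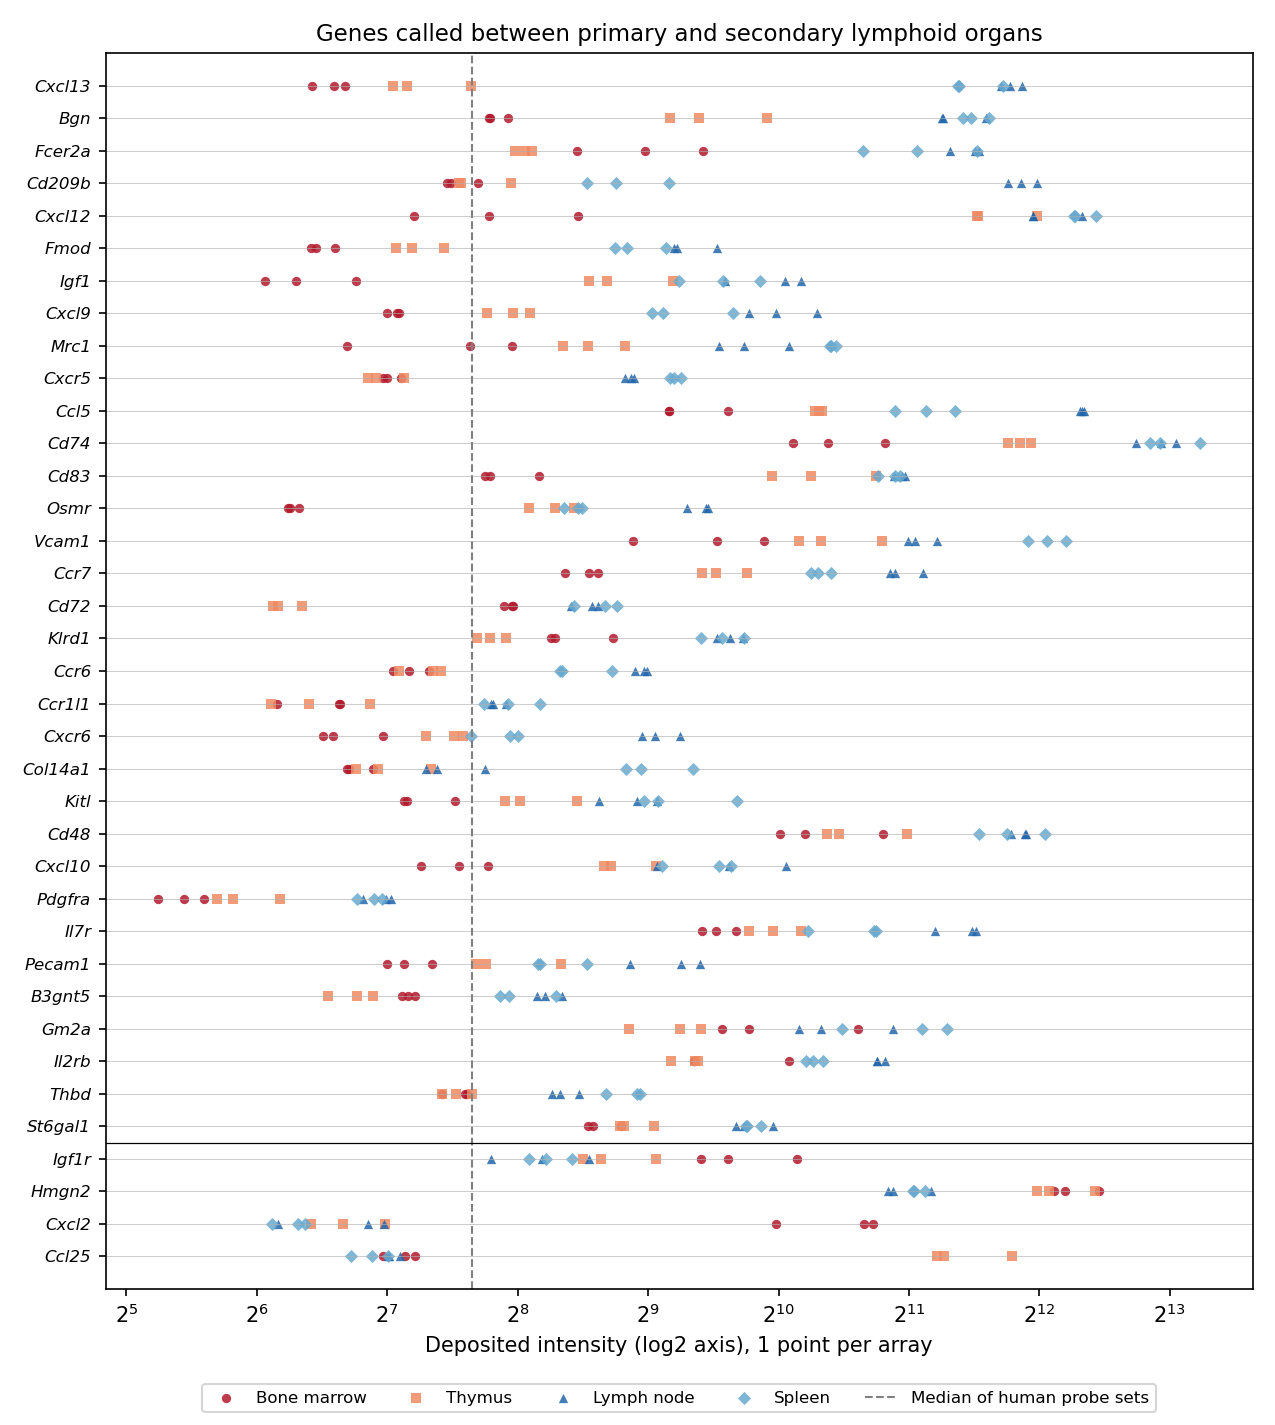
Deposited intensity on a log2 axis of the 37 called genes in the 12 arrays, 1 point per array, ordered by the side difference. The horizontal line separates the 33 secondary-higher genes above from the 4 primary-higher genes below, and the dashed line is the human probe set median. Cxcl13 shows the widest gap between sides, and in Ccl25 and Cxcl2 a single primary tissue stands apart.

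Genes of B cells came next. Fcer2a, the low-affinity IgE receptor CD23 of mature B cells, read 684, 503 and 352 in bone marrow, 277, 252 and 267 in thymus, 2965, 2547 and 2902 in lymph node, and 2933, 1608 and 2141 in spleen. No arrays of the sides overlapped. The difference was -2.76 ± 0.13 (SE, limma adjusted p = 1.92e-14), and a second probe set gave -2.74. Cd72, a B cell coreceptor, differed by -1.50 ± 0.19, with bone marrow (238 to 250.4) nearer to the secondary organs (339.8 to 433) than thymus (69.9 to 81.5), and without thymus the difference was -0.64. Of 4 measured B cell markers, 3 were called higher in the secondary organs (Fcer2a, Cxcr5 and Cd72) and the median was -1.77. The fourth, Cd22, an inhibitory sialic acid receptor of B cells, read 4625 to 5860.1 in all 12 arrays with a difference of 0.01 ± 0.14 (limma adjusted p = 0.982), and 2086 to 4873 as means of the 5 non-lymphoid tissues. A second Cd22 probe set, of lower signal (geometric mean of 140 against 4013), gave -2.91, so the probe sets of this gene disagree. In RNA of whole tissue, fewer cells of a type and less RNA per cell cannot be told apart, here and below.

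Genes of T and NK cells were also among the calls. Il7r, the interleukin 7 receptor of naive T cells and lymphoid precursors, read 682 to 817 in bone marrow, 876 to 1154 in thymus, 1196 to 1720.3 in spleen and 2347 to 2929.8 in lymph node (-1.23 ± 0.10, limma adjusted p = 3.98e-10). Without lymph node it was -0.82, and after quantile normalization -0.85. Klrd1, the CD94 chain of NK cell lectin receptors, read 207 to 425 in the primary and 679 to 851 in the secondary arrays (-1.49 ± 0.09, limma adjusted p = 6e-13). Il2rb, a chain of the interleukin 2 and interleukin 15 receptors, read 577 to 1085 and 1185 to 1808 (-1.07 ± 0.09), with -0.82 without lymph node and -0.93 without thymus. Cd48, an adhesion ligand on most blood cells, read 1034 to 2029 and 2969.5 to 4211 (-1.34 ± 0.14). Cd27, a T cell marker also high on thymocytes, was not called: thymus at 1704 to 3376 stood above every secondary array. In all, 2 of 3 T cell markers and 2 of 4 NK cell markers were called higher in the secondary organs.

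Genes of antigen-presenting cells formed another group. Cd74, the invariant chain that escorts MHC class II molecules, read 1105 to 1806 in bone marrow, 3467 to 3923 in thymus, 6853 to 8468 in lymph node and 7391 to 9636 in spleen. The difference was -1.81 ± 0.14 (SE, limma adjusted p = 1.29e-10). Cd83, a surface protein of mature dendritic cells, read 216 to 287 in bone marrow and 988 to 1715 in thymus, against 1737 to 2009.8 in the secondary arrays (-1.79 ± 0.12). The highest thymus array of Cd83 nearly met the lowest spleen array, and without bone marrow the difference was -0.59. Of 8 dendritic cell markers, Cd83 alone was called, and Itgax, the CD11c integrin chain, fell just under the size limit at -0.98 ± 0.07 with no overlap of arrays, while its second probe set, of lower signal, gave -1.98.

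The mannose receptor Mrc1 and Cd209b are C-type lectins of macrophages. Mrc1 read 198, 103 and 248 in bone marrow, 453, 373 and 325 in thymus, 746, 851 and 1084 in lymph node, and 1352, 1343 and 1387 in spleen (-2.10 ± 0.20, limma adjusted p = 6.54e-09). Cd209b, the lectin SIGN-R1 of macrophages in the splenic marginal zone and the lymph node medulla, read 3471, 4045 and 3713 in lymph node, 573, 432 and 370.2 in spleen, 176, 179 and 207 in bone marrow, and 247, 189.8 and 188 in thymus. Both secondary tissues were above the primary arrays, but lymph node was far above spleen, by 3.05 on the log2 scale. The side difference of Cd209b was -2.72 ± 0.10 (SE, limma adjusted p = 1.07e-16). Of 33 C-type lectins and collectins, 6 were called higher in the secondary organs (Fcer2a, Cd209b, Mrc1, Cd72, Klrd1 and Thbd) and 0 in the primary organs at an adjusted p under 0.05. The secondary-higher share was 18.2%, against 5.76% of all genes, and the list's median was -0.11. Of 5 macrophage and monocyte markers 1 was called, Mrc1, and the summed level of the 5 was higher in bone marrow (5367 to 8180.2) than in the secondary arrays (2035.1 to 3346.6).

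Stromal and matrix genes were a further group. Bgn, encoding the small leucine-rich proteoglycan biglycan, read 219.5, 221 and 243 in bone marrow, 965, 673 and 577 in thymus, 2449, 2437 and 3076 in lymph node, and 2842, 3135 and 2727 in spleen. No arrays of the sides overlapped, and the difference was -2.77 ± 0.14 (SE, limma adjusted p = 6.15e-14). Fmod, encoding the related fibromodulin, read 85.3 to 97.2 in bone marrow, 134 to 173 in thymus, 429 to 564 in spleen and 589 to 739 in lymph node (-2.25 ± 0.11). Pdgfra, a growth factor receptor of mesenchymal cells, differed by -1.25 ± 0.08, but all 12 arrays (37.8 to 131) lay below the human median and the difference was -0.88 with a floor of 64. Col14a1, a fibril-associated collagen, passed through spleen (454 to 649), since lymph node (157 to 216) overlapped thymus (108 to 162), and without spleen the difference was -0.59. Dcn, encoding decorin, was mixed: thymus read 2379 to 4321, between spleen at 1468 to 1936 and lymph node at 6004 to 7164. Of 6 fibroblast and matrix markers, 4 were called higher in the secondary organs, with a median of -1.67. The summed level of these 6 was 941.3 to 974.7 in bone marrow, 3686.4 to 6477.8 in thymus, 5798.2 to 6308.2 in spleen and 9909.9 to 12316.9 in lymph node. Dcn, at 6004 to 7164, was the largest part of the lymph node sum. The part of these cells in the results was not tested.

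Adhesion and growth factor genes followed. Vcam1, the endothelial and stromal ligand of the integrin VLA-4, read 473 to 949 in bone marrow, 1139 to 1772 in thymus, 2043 to 2371 in lymph node and 3862 to 4711 in spleen (-1.64 ± 0.13, limma adjusted p = 2.12e-10), and a second probe set gave -1.88. Pecam1, the endothelial junction protein CD31, had overlapping arrays and differed by -1.19 ± 0.12, with -0.80 without bone marrow and -0.75 without lymph node. Thbd, the endothelial anticoagulant thrombomodulin, differed by -1.06 ± 0.10 and by -0.81 without spleen. Igf1, insulin-like growth factor, read 66.7 to 109 in bone marrow, 375 to 585 in thymus and 604 to 1156 in the secondary arrays (-2.15 ± 0.14), with -0.94 without bone marrow. Kitl, the stem cell factor that sustains blood precursors, read 140.1 to 184 in bone marrow, 239 to 352 in thymus and 395 to 823 in the secondary arrays (-1.36 ± 0.11), with -0.93 without bone marrow. Osmr, the oncostatin M receptor, differed by -1.65 ± 0.12, with thymus (272 to 346) overlapping spleen (328 to 359.8) and -0.65 without bone marrow. Of 22 integrins and immunoglobulin-family adhesion molecules, 3 were called (Vcam1, Cd48 and Pecam1), or 13.6% against 5.76% of all genes, and the median was -0.36. Among 7 endothelial markers, 2 were called (28.6%). All 7 differences were below 0, though 5 of these genes were not called. The median over all genes was -0.03, and the share of all genes below 0 was not computed.

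Enzymes of glycan synthesis and breakdown are the main subject of the array. St6gal1 caps N-glycans with alpha2,6-linked sialic acid, which forms the ligand of CD22. It read 443, 373 and 382 in bone marrow, 527, 440.3 and 450.4 in thymus, 855, 819 and 997 in lymph node, and 867, 859.9 and 932 in spleen. The sides did not overlap and the difference was -1.03 ± 0.10 (SE, limma adjusted p = 6.74e-09). Being close to the size limit, it was -0.99 without lymph node replicate 3 and -0.91 without bone marrow, and the other 2 probe sets gave -0.94 and -0.21. B3gnt5, which starts the lacto-series glycolipids, read 138 to 148 in bone marrow, 93.3 to 119 in thymus and 233 to 323 in the secondary arrays (-1.18 ± 0.11). Without thymus it was -0.97, and the secondary arrays of B3gnt5 lay not far above the human probe set median of 200.5. Gm2a, the lysosomal activator protein for breakdown of the ganglioside GM2, differed by -1.13 ± 0.20 with overlapping arrays, by -0.88 without spleen and by -0.72 without thymus.

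B4galnt1, the synthase of the gangliosides GM2 and GD2, fell just outside the size limit with no overlap of arrays (499 to 803 against 1039.9 to 1518), and its second probe set gave -1.15. Ugcg, which makes glucosylceramide, the base of most glycolipids, was also fully separated at -0.79 ± 0.09. St6gal1 was the 1 call among 7 alpha2,6-sialyltransferases, and B3gnt5 the 1 call among 17 beta-galactosyltransferases and poly-N-acetyllactosamine enzymes and among 16 glycosphingolipid genes. In other lists, 0 of 6 alpha2,3-sialyltransferases, 0 of 11 fucosyltransferases, 0 of 7 N-glycan branching genes, 0 of 17 heparan sulfate genes and 0 of 24 nucleotide sugar genes were called by the limma rule. Over all genes, 5.76% were called higher in the secondary and 0.698% in the primary organs, so lists of these sizes would hold few calls at that share. The medians of those lists ran from -0.05 to 0.05. Over all 573 genes, limma gave 252 an unadjusted p under 0.05 and 215 an adjusted p under 0.05 at any size, and the absence of calls in these families does not show equal levels.

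**Figure D4:**
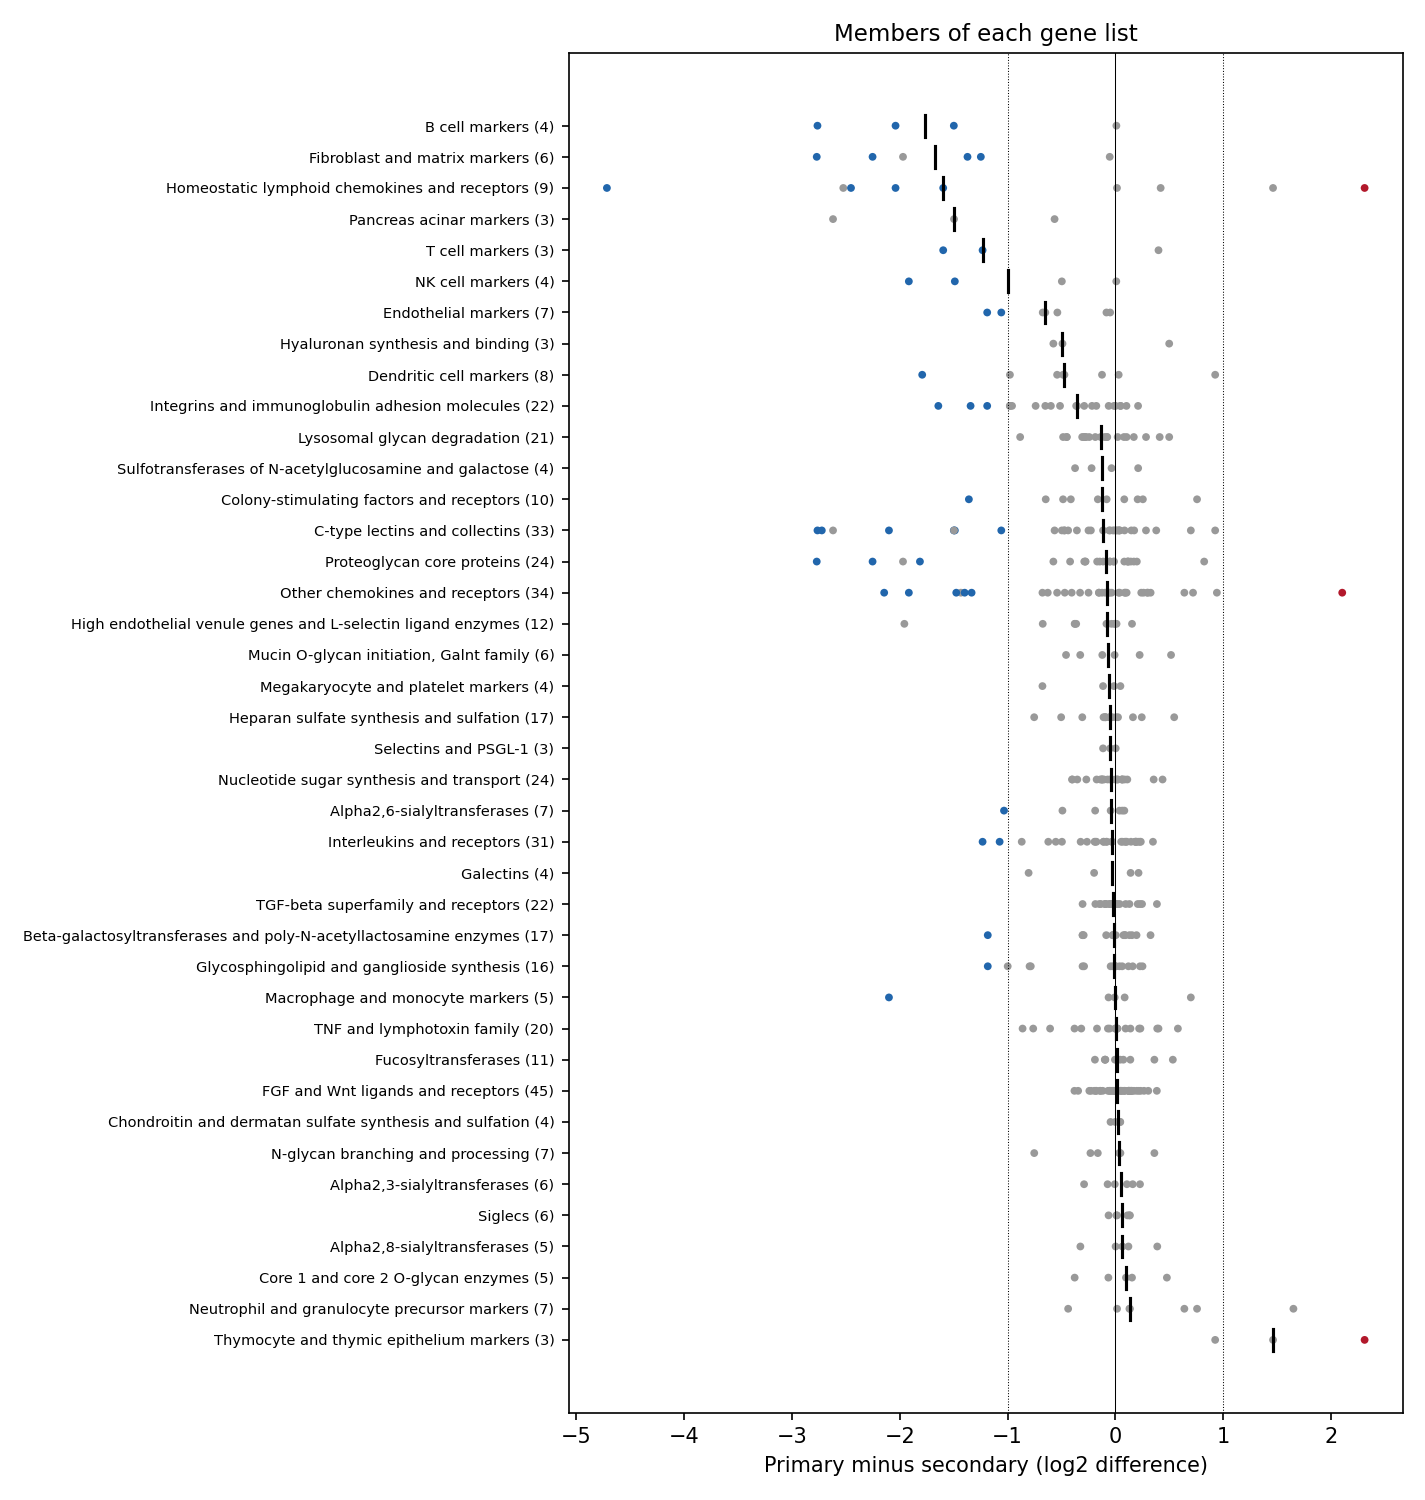
Primary minus secondary log2 difference of each measured member of the gene lists with at least 3 measured members, 1 point per gene (blue: called secondary-higher; red: called primary-higher; grey: not called), with the list's median as a black bar and its number of measured members in brackets. B cell, fibroblast and homeostatic chemokine lists have the lowest medians (-1.77, -1.67 and -1.60), and most glycosyltransferase lists are centred near 0.

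The cytokine families included the lymphotoxins Lta and Ltb, which organise lymphoid tissue and were higher in all 6 secondary arrays but by less than the size limit. Ltb read 2258 to 3366 in the primary and 3641 to 6250.2 in the secondary arrays (-0.86 ± 0.11), and Lta read 233 to 297 and 424 to 506 (-0.76 ± 0.08). All 6 secondary arrays lay above the primary ones in 2 of the 20 TNF family genes, where 10.1% of all genes did so. The median difference of this family was 0.01. By the limma rule 0 of 20 TNF family genes, 0 of 45 FGF and Wnt genes and 0 of 22 TGF-beta superfamily genes were called. All 4 tissue means were under the human probe set median in 3, 12 and 4 of them, in that order, and in 78 of all 573 genes. The absence of calls does not show equal levels. Il7r and Il2rb were the 2 calls among 31 interleukins and receptors, or 6.45%, where 5.76% of all genes were called in that direction.

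Among the 4 genes higher in the primary organs, Hmgn2 alone was high in both. Hmgn2, a nucleosome-binding protein of active chromatin, read 4686, 4418 and 5618 in bone marrow, 5501, 4314 and 4054 in thymus, 1837, 1879 and 2305 in lymph node, and 2088, 2233 and 2100.0 in spleen. The primary arrays lay wholly above the secondary ones, and bone marrow and thymus overlapped. The difference was 1.19 ± 0.09 (SE, limma adjusted p = 7.26e-11), and all 4 tissues were above the 5 non-lymphoid means, of which lung was highest at 1279.

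Ccl25 and Cxcl2 each rested on 1 organ. Ccl25 read 3532, 2469.7 and 2380.2 in thymus, while bone marrow (125 to 149) overlapped lymph node (128 to 137). Its side difference was 2.31 ± 0.10, and 0.15 without thymus. Cxcl2 read 1013, 1691 and 1612 in bone marrow, while thymus (85.5 to 126) overlapped lymph node (71.8 to 126). Its side difference was 2.10 ± 0.14 and 0.22 without bone marrow. The Cxcl2 tissue means no longer agreed without lymph node replicate 1 (1.98), without thymus replicate 2 (2.03) or after quantile normalization (2.04). The summed level of 7 neutrophil markers was 18822.9 to 21106.6 in bone marrow and 2552.7 to 4298.3 in the other 3 tissues. Most of the bone marrow sum was Ltf, with a mean of 14124 there. Of the 7 markers 0 were called between sides, and their median difference was 0.13. The part of these cells in the Cxcl2 level was not tested.

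Igf1r, the receptor for IGF1, had the difference closest to the size limit among all called genes. It read 782, 1129 and 679 in bone marrow, 533, 363 and 398 in thymus and 222 to 373 in the secondary arrays, so thymus and lymph node overlapped. The difference was 1.02 ± 0.16 (SE, limma adjusted p = 1.19e-05) and a second probe set gave 0.09. Without bone marrow it was 0.53, and without lymph node 0.99. It fell to 0.91 without bone marrow replicate 2, 0.92 without lymph node replicate 3, 0.94 without thymus replicate 1 and 0.98 without spleen replicate 2. Genes under the size limit with all primary arrays above included Lta4h, a leukotriene enzyme (0.88 ± 0.13), and Gpc1, the proteoglycan glypican 1 (0.82 ± 0.09).

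The tissues of a side also differed from each other. Bone marrow and thymus differed in 48 genes (8.38% of those tested), 24 in each direction, and lymph node and spleen in 24 genes (4.19%), 14 higher in lymph node and 10 in spleen. Of the 33 secondary-higher genes, 10 differed between bone marrow and thymus, 4 between lymph node and spleen (Cd209b, Ccl5 and Cxcr6 higher in lymph node, Col14a1 in spleen) and 19 in neither pair. Bone marrow was the lowest of the 4 tissues in 24 and thymus in 9, where bone marrow lay below thymus in 52% of all genes. Lymph node was highest in 21 and spleen in 12, where lymph node lay above spleen in 51.3% of all genes. In 10 of the 33, both primary means were under the human median, so those folds are ratios of signals rather than of transcripts. Of the 33, 13 met the size and p conditions in each of the 4 single pairs of a primary with a secondary tissue: Cxcl13, Bgn, Fcer2a, Cd209b, Fmod, Cxcl9, Mrc1, Cxcr5, Cd74, Klrd1, Ccr6, Ccr1l1 and Cd48. Hmgn2 did so in the other direction. These pairs use the same arrays as the calls, and no share over all genes is given, so the list only describes the calls.

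Another 9 genes passed the size and p conditions without agreement of the tissues. The 7 toward the secondary organs were Reg1, Reg2, Ccl21b, Dcn, Glycam1, Ccl8 and Fbln5. Reg1, a secreted pancreas lectin, read 6658, 9125 and 11464 in spleen and at most 232 elsewhere, and Reg2 read 583, 4194 and 4009 in spleen and at most 261 elsewhere. Glycam1 and Ccl8, a monocyte chemokine at 2152 to 4270.1, were high in lymph node alone, and Fbln5, an elastic fibre protein at 534 to 762, in spleen alone. The 2 toward the primary organs were Ccr9 and Ltf, each high in 1 organ.

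The called genes were also set beside the 5 non-lymphoid tissues, brain, kidney, liver, lung and testis. Of the 33 secondary-higher genes, lymph node and spleen lay above all 5 in 18 with primary levels not above all 5, and all 4 lymphoid tissues lay above all 5 in another 6 (Ccl5, Ccr7, Cd48, Cxcl10, Il7r and Il2rb). In the other 9 at least 1 non-lymphoid tissue was above a secondary one. The calls required high lymph node and spleen levels, which favours the first of these patterns. No share over all genes is given, so the counts only describe the calls. Lung reached 8417 for Bgn, 5593 for Thbd and 2318 for Kitl, and liver reached 4057 for Igf1, each above lymph node and spleen.

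**Figure D5:**
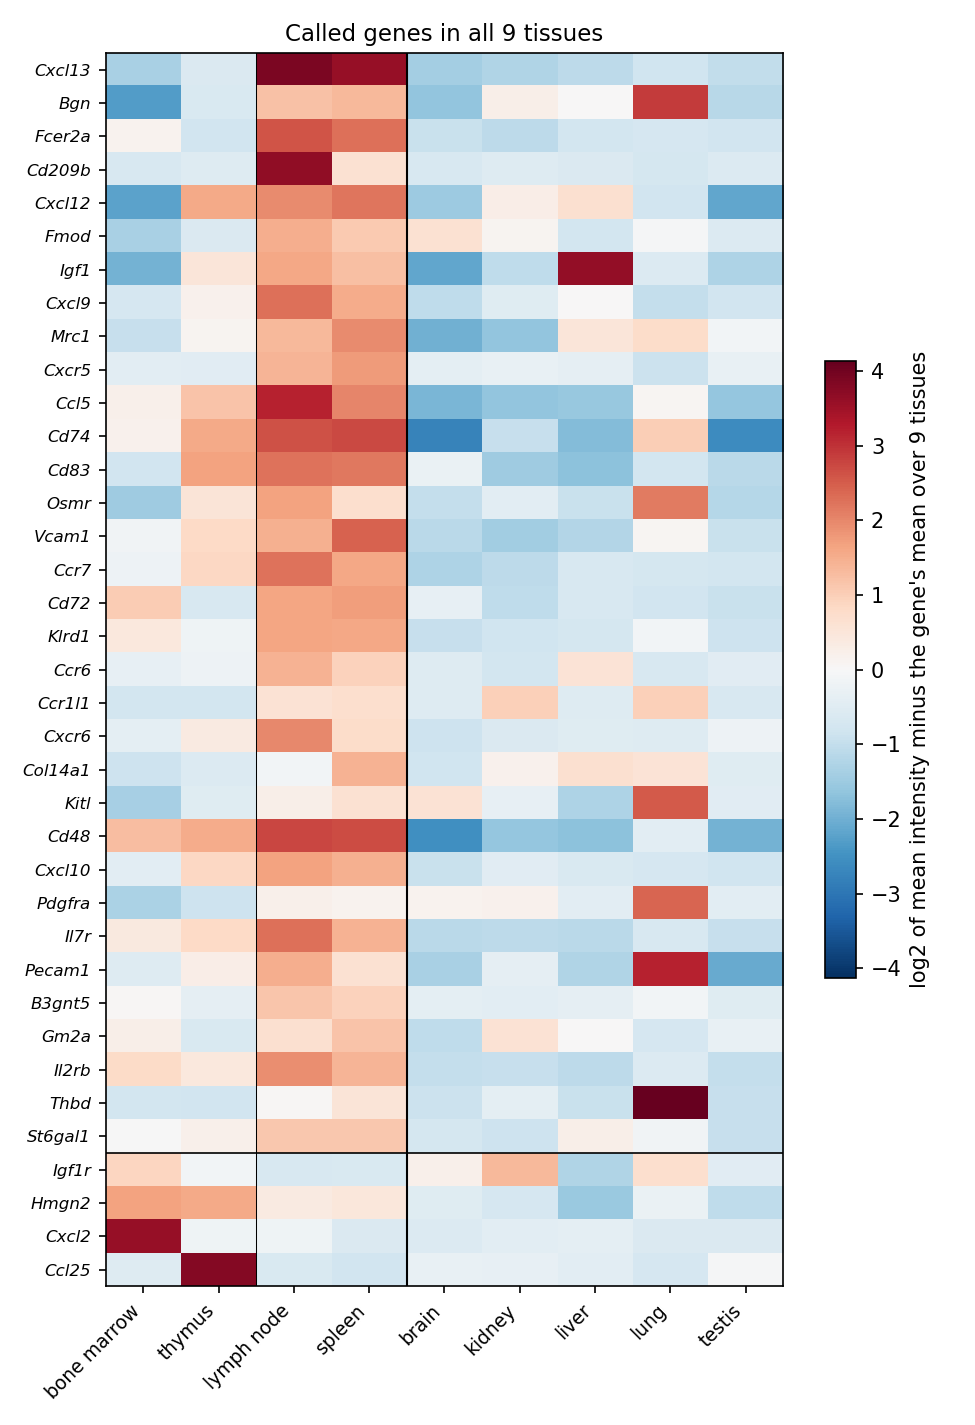
Log2 of the mean intensity of 3 arrays minus the gene's mean over 9 tissues, for the 37 called genes (rows, secondary-higher above the horizontal line) in the 4 lymphoid and 5 other tissues (columns). Red is above and blue below the gene's own mean. Cxcl13, Cxcr5, Fcer2a and Cd72 are red in lymph node and spleen, while Bgn, Thbd, Kitl, Pdgfra and Pecam1 are also red in lung.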

How the data were processed

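Biotin-labelled total RNA was measured on 27 custom Affymetrix arrays of 1 colour, per the labels. The deposited values are linear intensities, 1 for each probe set and array. How the authors summarised probes, corrected background and scaled arrays is not given in the sources used here. Of 1813 probe sets, 1563 had 1 symbol in the platform annotation, 2 several and 248 none. The 702 mouse probe sets gave 573 genes, each by its probe set with the highest mean over all arrays, and 839 human ones were left out. Intensities under 16 were raised to 16 (1 value in the 12 arrays) and log2 taken. A linear model with 1 mean for each tissue was fitted to 27 arrays in limma 3.58.1 (R 4.3.3, lmFit and eBayes), the other 15 adding only to the estimate of spread. Contrasts weighted tissues equally, with Benjamini-Hochberg adjustment over 573 genes. Folds are powers of 2 of log2 differences. The script was tested on simulated data. The comparison, the 43 gene lists (1, of adipocyte markers, had 0 measured genes) and the naming rule (up to 30 called genes per direction by size, list members and genes with opposite primary tissues) were chosen with earlier results of these data known. B4galnt1 and other genes just under the size limit, and the called genes beyond the largest 30, were added after their values were seen. The number of arrays limits the precision. Motif searches and figures used Python 3.11.15 and matplotlib 3.10.9.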

Additional observations from a re-analysis of the deposited data

Results flagged for a closer look

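In 4 genes, bone marrow and thymus differed from the secondary organs in opposite directions, each called. The difference between them is given by limma's contrast of bone marrow with thymus. Because the genes were picked on these same arrays for opposite differences of at least 1, that contrast was bound to be large. Its p-values describe these genes and add no support. Ltf, lactoferrin, was 6.10 ± 0.36 (SE, log2) higher in bone marrow than in thymus (limma adjusted p = 1.97e-12). Clec4a2, a C-type lectin of myeloid cells, read 2142 to 2963 in bone marrow, 89.2 to 115 in thymus and 195 to 946 in the secondary arrays, a bone marrow minus thymus difference of 4.68 ± 0.42 (limma adjusted p = 2.86e-09). Ccr2, the receptor of inflammatory monocytes, read 963 to 1695 in bone marrow, 108 to 124 in thymus and 223 to 697 in the secondary arrays (3.52 ± 0.25, limma adjusted p = 3.96e-11). Igfbp5, an IGF-binding protein, ran the other way, with 114 to 162 in bone marrow, 798 to 925 in thymus and 316 to 573 in the secondary arrays (-2.64 ± 0.19, limma adjusted p = 5.53e-11). The side differences of Ccr2, Clec4a2 and Igfbp5 were 0.09, -0.01 and -0.28, so the mean of the primary organs hides them. In all 4 genes, the 3 arrays of each primary organ lay wholly outside the range of the 6 secondary arrays. The way the genes were picked favours such separation, and its share over all genes was not computed.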

How the results depend on the processing

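Over 29 alternative settings, 0 of 1080 gene values reversed, 997 kept their call and 83 lost it. Of the 37 called genes, 17 lost it only with tissue means as the 4 samples, where both counts were 0. The count of secondary-higher genes was 27 to 46 under the other settings and 33 to 37 with 1 array left out in turn. The count of primary-higher genes was 3 to 4 with 1 array left out, 7 after centring each array on its median, 8 without bone marrow, 16 without thymus and 1 where no overlap of arrays was allowed. Median centring moved the median difference of all genes by 0.13, and relative to that shift the differences are those of the main fit, with Gm2a, Il2rb, Thbd and St6gal1 passing below the size limit. Quantile normalization, which moved that median by 0.05, gave 28 and 4 calls, of which 28 and 3 were shared with the reported ones. The calls lost were Gm2a, Il2rb, Il7r, St6gal1 and Thbd, and in the other direction Cxcl2. Leaving out spleen, which carried pancreas transcripts, gave 46 secondary-higher genes, 30 of them shared. The replicate block, with the title number 1 to 3, gave 33 and 4 calls and changed none. Same-numbered arrays of different tissues had a median r of 0.03 in their deviations (-0.25 to 0.55 over 18 pairs) against 0.01 for 36 pairs of different number, so the numbers were not taken to pair samples. Signal over background limits the low side of the folds.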
